A study of Homo sapiens with 6 samples.

Results

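The genes described are 8 members of the complement system and its regulators: C1R, C1S, C3, CFB, CFI, CD46, CD55 and CD59. They were chosen by symbol, with earlier results of these data known. All 8 were found among the 19077 gene symbols of the deposited table. SW1990 is an established human pancreatic cancer cell line grown in DMEM/F-12 with fetal bovine serum. RNA was sequenced in 6 libraries: 1 of the unsorted parental line, 1 of a derivative resistant to gemcitabine, a nucleoside analogue, whose medium contained 100 nM of the drug, and 4 of parental cells separated by flow cytometry. Of these 4, 2 held positive and 2 held negative cells by the marker TRA-1-81, a glycan known from pluripotent stem cells. The sorted libraries carry 0603 or 0610 in their titles, and the labels do not say what these numbers mark. The resistant cells are a single derivative grown in drug, and lasting resistance cannot be told apart from a reaction to the drug. Separate cultures are not stated for any libraries, so a p-value reflects the spread among these samples alone, and that spread may be technical.

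Complement is a cascade of plasma and cell-derived proteins that ends in C3 fragments on a target surface and in pores made by the terminal components. In the classical pathway the proteases C1r and C1s, bound to C1q, start the cascade, whereas factor B supplies the protease of the alternative pathway that amplifies C3 cleavage. Cells guard themselves with membrane proteins: CD46 is a cofactor for factor I, which cuts C3b and C4b, CD55 speeds the decay of the C3 convertases, and CD59 blocks the terminal pore. Most circulating complement is made by the liver, and epithelial and tumour cells can also make components.

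The values are FPKM (fragments counted per kilobase of RNA and corrected for library depth) and can be compared between genes because they are per length. Log2 differences are differences of log2(FPKM + 1), which understates changes of genes with low values. The depth was such that 3 fragments on a 1 kb transcript gave an FPKM of roughly 0.0974 to 0.111 in sorted, 0.145 in resistant and 0.175 in unsorted parental cells. The 6 epithelial markers (EPCAM, CDH1, KRT7, KRT8, KRT18, KRT19) all reached an FPKM of 1 in both unsorted libraries, with sums of 4291 to 5840 over the 6 libraries. The 6 monocyte and macrophage markers summed to 0.294 to 1.05, and the hepatocyte marker ALB was listed at 0 in every library. The hepatocyte list summed to 3.17 to 7.71, with the highest values from SERPINA1 (2.36 to 6.23) and APOA1 (0.0924 to 5.26). The endothelial list summed to 1.11 to 4.87, with the highest values from CDH5 (0.678 to 4.01).

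By level the members fell into an abundant and a scarce group. In the parental library C3 stood highest at an FPKM of 149, followed by CD46 at 111, CD59 at 65.8 and CD55 at 42.7. CFB followed at 3.48, C1R at 0.432, CFI at 0.344 and C1S at 0.104. C3 exceeded 97.4% of all genes in that library and CFB 51.2%. In the resistant library the order was CD59 at 151, C3 at 140.1, CD55 at 114, CFB at 112, CD46 at 86.7, CFI at 14.9, C1R at 9.09 and C1S at 4.42. CFB there exceeded 96.0% of all genes. Each unsorted group is 1 library, so the neighbours in these orders have no replicate spread within a library type. Among the 4 sorted libraries C3 (109 to 115), CD46 (126 to 143) and CD59 (65.8 to 71.5) kept separate ranges, while CD55 (41.1 to 65.3) stopped short of CD59 by less than 1. The ranges of C1S and CFI overlapped.

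**Figure D1:**
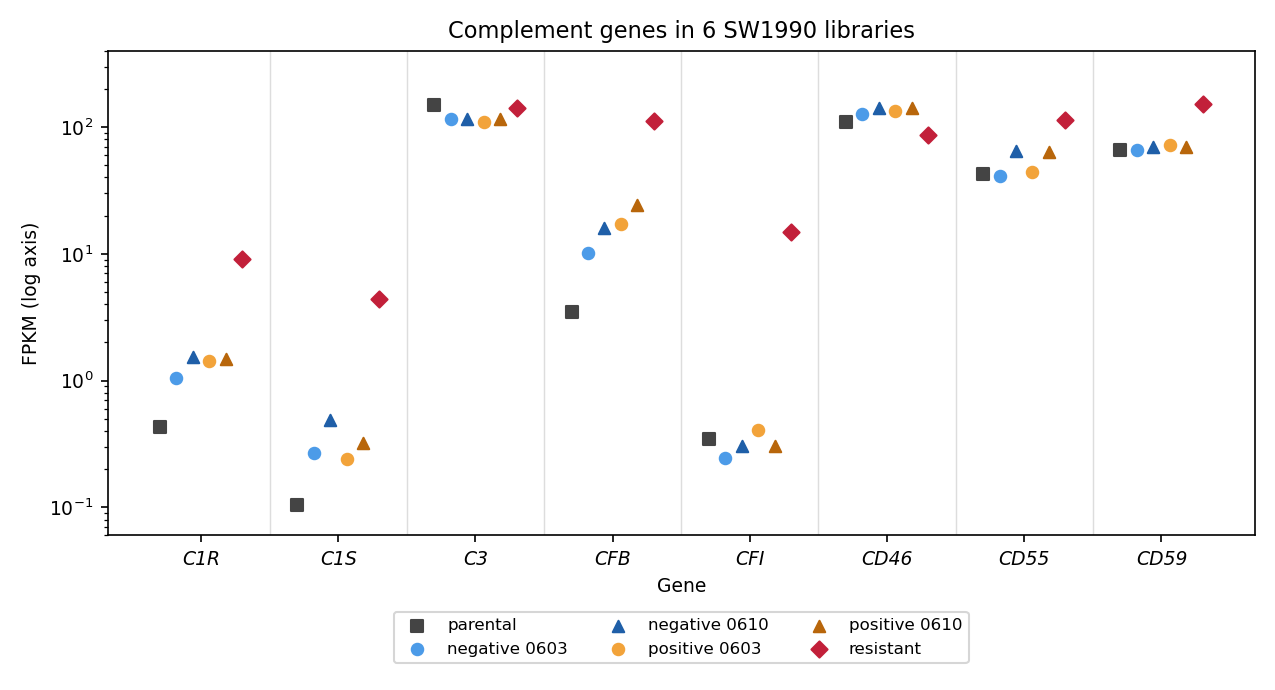
FPKM of the 8 genes (log axis) in the 6 libraries, 1 point per library, with no error bars because each point is a single library. CFB, C1R, C1S and CFI stand higher in the resistant library than in any other, while C3 stays between 109 and 149 in all 6.

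The comparison of resistant with parental cells asks how the gemcitabine-resistant derivative differs from its line of origin. Of the 8 members, 6 were at least 2-fold higher in the resistant library (CFB, CFI, C1R, C1S, CD55, CD59) and 0 were at least 2-fold lower, with a median log2 ratio of 1.84. Over all 12066 genes measured (FPKM of 1 or more in one library or the other), 13.5% passed the same fold upward and 6.9% downward, with a median of 0.09. For 3 of the 6 (C1R, C1S, CFI) the parental FPKM was under 1, so they entered through the resistant library and could be called in the upward direction alone. There is no replicate check and no test for this pair, and in bulk RNA more expressing cells and more RNA per cell cannot be told apart. The resistant value lay above all 5 parental-line libraries (the unsorted and the 4 sorted ones) for the same 6 members, a pattern found in 38.5% of 12251 genes. For 5 members (CFB, CFI, C1R, C1S and CD59) it was at least 2-fold above each of the 5, against 5.62% of genes, and it was at least 2-fold below each of the 5 for 0 members, against 2.14% of genes. Quantile normalization moved the median of all genes from 0.09 to -0.06 and left 6 members at least 2-fold higher. Because the members were chosen with earlier results of these data known, their shares beside those of all genes are descriptions only.

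**Figure D2:**
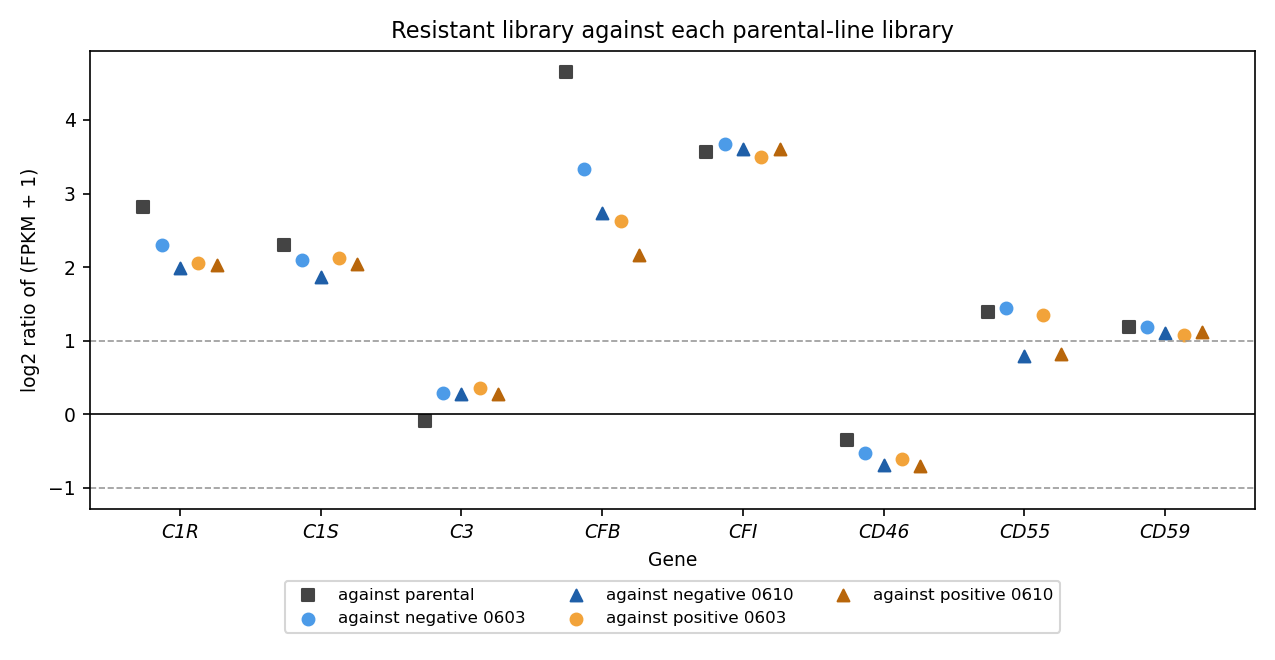
Log2 ratio of FPKM + 1 of the resistant library to each of the 5 parental-line libraries, 1 point per reference library, with dashed lines at a 2-fold difference. CFB, C1R, C1S, CFI and CD59 lie above the upper line for every reference, CD55 lies below it for both 0610 libraries, and CD46 lies below 0 for all 5.

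The initiating proteases of the classical pathway were scarce in all parental-line libraries. C1R (chromosome 12, 7187515 to 7245043, hg19), which activates C1s, had an FPKM of 0.432 in the parental library, 1.04 and 1.54 in the negative 0603 and 0610 libraries, 1.43 and 1.48 in the positive ones and 9.09 in the resistant library. The resistant value stood apart, and the unsorted parental value lay below all 4 sorted ones. The log2 ratio of resistant to parental cells was 2.82, and 2.09 to the mean of the sorted libraries. C1S (chromosome 12, 7167980 to 7178335), the protease that cleaves C4 and C2, had an FPKM of 0.104 in the parental library. It stood at 0.268 and 0.491 in the negative, 0.241 and 0.321 in the positive and 4.42 in the resistant library. The parental value was again the lowest and the resistant value the highest. The parental value rested on roughly 5 fragments, for which the exact 95% Poisson interval is an FPKM of 0.0339 to 0.243. The ratio of resistant to parental FPKM was 42.3. From whole fragment numbers, which are estimates, it was 42.4, with an exact counting interval of 17.9 to 132. The interval covers counting error only. The log2 ratio of C1S was 2.29 against the parental library and 2.03 against the sorted mean.

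Fibroblasts are known to make C1r and C1s, and some fibroblast markers moved with these genes. The 6 listed markers summed to an FPKM of 2.86 in the parental, 4.36 to 5.38 in the sorted and 20.2 in the resistant library. Nearly all of the resistant sum came from COL1A1 at 14.1 and LUM at 6.04. The other 4 were near or at 0 there, with COL3A1 at 0.0597, PDGFRB at 0.0345, COL1A2 at 0.0212 and DCN listed at 0. In the sorted libraries PDGFRB (0.101 to 0.317) and COL1A2 (0.0503 to 0.0880) were higher than that, and COL3A1 (0.00769 to 0.0430) was lower. The part of the fibroblast markers in the C1R and C1S values was not tested.

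C3, the central component, did not share the pattern of the proteases. C3 (chromosome 19, 6677846 to 6720662) had an FPKM of 149 in the parental library, 115 in both negative libraries, 109 and 115 in the positive libraries and 140.1 in the resistant library. The 2 unsorted libraries were the highest and the sorted ones lay close together below them. The log2 ratio of resistant to parental cells was -0.09, and 0.30 against the sorted mean, so its sign depended on the reference and neither reached 2-fold.

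CFB, which encodes factor B (chromosome 6, 31913721 to 31919861), was higher in the resistant library than in all 5 parental-line libraries. Its FPKM was 3.48 in the parental library, 10.2 and 16.0 in the negative 0603 and 0610 libraries, 17.2 and 24.2 in the positive ones and 112 in the resistant library. All 6 libraries differed, with unsorted parental cells lowest, the sorted ones in between and resistant cells 4.63 times the highest sorted library. The log2 ratio was 4.66 against the parental library and 2.72 against the sorted mean. CFB is a gene known to respond to interferons and to NF-kB signalling. Its promoter is therefore shown, from 250 bases before to 50 after the start site, from RefSeq on GRCh38.p14 (chr6:31945845-31946144, plus strand). Of the 8 members, 6 had an entry in that table.
CFB: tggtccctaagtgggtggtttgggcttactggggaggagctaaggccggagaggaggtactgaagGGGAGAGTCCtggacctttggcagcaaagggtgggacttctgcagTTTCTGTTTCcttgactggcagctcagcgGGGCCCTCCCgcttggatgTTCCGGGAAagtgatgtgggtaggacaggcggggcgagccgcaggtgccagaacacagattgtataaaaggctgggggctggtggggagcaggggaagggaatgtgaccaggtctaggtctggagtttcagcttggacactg
The capitals mark letters matching motifs searched on both strands. The interferon-stimulated response element core (a pair of GAAA blocks with 2 bases between) occurs on the minus strand and begins at base -140, counted from the start site. The gamma-activated site TTCNNNGAA, bound by STAT factors, starts at base -92, and the NF-kB pattern (GGGA, 4 free bases, CC) starts at -185 on the plus and at -111 on the minus strand. None of these matches overlap. Of 35116 promoters of the same length, 3.57% hold the first motif, 7.66% the second and 25.6% the third. A match describes letters only and is not a measured binding site.

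CFI, which encodes factor I (chromosome 4, 110661848 to 110723335), was scarce in all 5 parental-line libraries. Its FPKM was 0.344 in the parental library, 0.246 and 0.305 in the negative, 0.407 and 0.303 in the positive and 14.9 in the resistant library. The 5 parental-line libraries overlapped one another and the resistant one stood far above them. The log2 ratio was 3.56 against the parental library and 3.59 against the sorted mean. The parental value rested on roughly 13 fragments. The ratio of resistant to parental FPKM was 43.2. From whole fragment numbers, which are estimates, it was 42.2, with an exact 95% counting interval of 24.5 to 79.6. The interval covers counting error only. Unlike CFB and C1R, CFI was not higher in the sorted than in the unsorted parental cells. The promoters of CFI (chr4:109801950-109802249, minus strand) and of C1R (chr12:7092396-7092695, minus strand, the more upstream of 2 listed starts) are shown for comparison with that of CFB.
CFI: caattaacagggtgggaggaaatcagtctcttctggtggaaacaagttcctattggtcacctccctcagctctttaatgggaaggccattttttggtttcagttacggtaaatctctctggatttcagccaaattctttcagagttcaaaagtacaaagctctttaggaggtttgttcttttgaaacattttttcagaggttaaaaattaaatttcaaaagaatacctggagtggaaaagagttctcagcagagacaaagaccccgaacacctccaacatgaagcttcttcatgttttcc
C1R: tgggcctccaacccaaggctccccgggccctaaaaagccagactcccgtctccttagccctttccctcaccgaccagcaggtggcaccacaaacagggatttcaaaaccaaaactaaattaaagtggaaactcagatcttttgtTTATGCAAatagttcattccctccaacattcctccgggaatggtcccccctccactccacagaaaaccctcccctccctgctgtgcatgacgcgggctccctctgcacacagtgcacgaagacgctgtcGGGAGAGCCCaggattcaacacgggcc
In the C1R window the capitals mark the C/EBP pattern TTGCNNAA on the minus strand from base -106, held by 10.5% of promoters, and the NF-kB pattern from base 24 after the start site. The CFI window holds none of the 4 patterns, which says only that these letters are absent from this window. Of the promoters not shown, that of CD59 (chr11:33736430-33736729, minus strand, the most upstream of 4 listed starts) holds the gamma-activated pattern, TTCTCAGAA, from base -128, and that of CD46 holds none of the 4.

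The 3 membrane regulators differed in direction. CD55 (decay-accelerating factor; chromosome 1, 207494817 to 207534311) had an FPKM of 42.7 in the parental library, 41.1 and 65.3 in the negative 0603 and 0610 libraries, 44.1 and 64.1 in the positive ones and 114 in the resistant library. The resistant value was the highest, and the 0610 libraries lay between it and the other 3. Its log2 ratio was 1.39 against the parental library and 1.10 against the sorted mean, and 0.79 and 0.82 against the negative and positive 0610 libraries. Without the negative library 0603 the ratio to the sorted mean was 0.98, which is under 2-fold. CD59 (protectin; chromosome 11, 33724556 to 33758025) had an FPKM of 65.8 in the parental library, 65.8 and 70.0 in the negative, 71.5 and 69.4 in the positive and 151 in the resistant library. The 5 parental-line libraries lay close together and the resistant library at over 2 times the highest of them (log2 ratio 1.19 and 1.12 against the parental library and the sorted mean).

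CD46 (membrane cofactor protein; chromosome 1, 207925383 to 207968861) was the only member with its lowest value in the resistant library. Its FPKM was 111 in the parental library, 126 and 140.3 in the negative, 133 and 143 in the positive and 86.7 in the resistant library. The resistant value lay below all 5 parental-line libraries, as it did for 30.1% of all genes, but by less than 2-fold. The log2 ratio was -0.35 against the parental library and -0.63 against the sorted mean. The promoter of CD55 (chr1:207321428-207321727, plus strand) is shown because its RNA also differed between sorted libraries, as described further on, and it holds none of the 4 patterns.
CD55: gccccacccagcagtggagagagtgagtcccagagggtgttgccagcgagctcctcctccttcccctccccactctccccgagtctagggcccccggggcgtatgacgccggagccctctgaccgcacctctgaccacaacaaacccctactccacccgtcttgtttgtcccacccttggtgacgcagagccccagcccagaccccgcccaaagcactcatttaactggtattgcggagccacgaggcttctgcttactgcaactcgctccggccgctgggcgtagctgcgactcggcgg

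The unsorted parental library also differed from the cells sorted from the same line, which touches every ratio to it. CFB was the 1 member of 6 measured at least 2-fold higher in the sorted libraries (log2 difference 1.94), and 0 members were lower, against 5.39% and 2.06% of 11823 genes. C1R differed by 0.72, CD55 and CD46 by 0.29, CD59 by 0.07 and C3 by -0.39. The parental value lay below all 4 sorted libraries for 4 of the 8 members (CFB, C1R, C1S, CD46), against 45.3% of all genes, and above them for C3 alone, against 35.4%. Whether sorting, culture or library preparation separates these libraries cannot be told apart. Against the sorted mean 6 of 8 members were at least 2-fold higher in resistant cells and 0 lower, with a median of 1.57, against 8.17% and 4.89% of 12157 genes and a median of 0.05. Here 2 of the 6 (C1S, CFI) had a sorted mean under 1 and entered through the resistant library.

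The comparison of TRA-1-81 positive with negative cells asks which genes differ between these fractions of the parental line. Of the 6 members that passed the filter (2 or more sorted libraries with an FPKM of 1 or above, which C1S and CFI lacked), 0 passed the threshold by limma, and 0 had an unadjusted p under 0.05. Over all 11533 genes tested, 0.00867% passed (1 gene) and 4.9% had an unadjusted p under 0.05. CFB had the largest difference, with an FPKM of 20.7 ± 4.90 in the positive fraction against 13.1 ± 4.12 in the negative one (SD, n = 2 each). Its log2 fold change was 0.64 ± 0.26 (SE; limma adjusted p = 0.9999, unadjusted p = 0.0611), with a 95% interval of -0.04 to 1.32. Within the numbers CFB was higher in positive cells both times, by 0.71 within 0603 and 0.57 within 0610, which are FPKM ratios of 1.70 and 1.51. The limma fit left out the title numbers. When they were added CFB passed the threshold, as given under processing further on. With 2 pairs it is not shown that the numbers pair the libraries. Both positive libraries lay above both negative ones for CFB alone of the 6, or 16.7%, against 18.6% of all genes. The median fold change over the 6 was 0.05, and 0.01 over all genes.

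The other tested members had log2 fold changes between -0.04 (C3) and 0.11 (C1R) for the fractions. With 2 libraries in each fraction this does not show that the fractions are alike. The 95% interval of the log2 fold change was -0.21 to 0.14 for C3, -0.17 to 0.28 for CD46 and -0.13 to 0.23 for CD59. It was wider for C1R (-0.24 to 0.46) and widest for CD55 (-0.71 to 0.78), whose 2 libraries in each fraction lie far apart. C1S, which was not tested, was lower in positive cells within both numbers, by 0.03 within 0603 and 0.17 within 0610. As ratios of positive to negative FPKM these are 0.898 and 0.654. For CFI, also not tested, the FPKM ratio was 1.66 within 0603 and 0.995 within 0610. Both genes have low values, and adding 1 shrinks their log2 differences.

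Grouping the same 4 libraries by their title numbers separated CD55. Its FPKM was 64.7 ± 0.839 in the 0610 and 42.6 ± 2.11 in the 0603 libraries (SD, n = 2 each). The log2 fold change was 0.59 ± 0.05 (SE; limma adjusted p = 0.00974), with 0.65 in negative and 0.53 in positive cells. CD55 was the 1 member of 6 past the threshold, and 9.08% of all genes passed (5.7% higher in 0610). An unadjusted p under 0.05 was found for 2 members (CD46, CD55) and 30.4% of all genes. The 1047 genes that passed became 18 without the negative 0603, 85 without the negative 0610, 22 without the positive 0603 and 124 without the positive 0610 library. Leaving out the negative 0603, negative 0610 or positive 0603 library took the limma adjusted p of CD55 to 0.0960, 0.0570 and 0.0667, with log2 fold changes of 0.54, 0.58 and 0.64. Each such fit leaves 1 library in a group and assumes that it varies like the other group. The adjusted p spanned 0.00858 to 0.0960 over all settings without a block. Both 0610 libraries lay above both 0603 ones for 4 of the 6 members (C3, C1R, CD46, CD55), against 32.1% of all genes. They lay below them for 0 members, against 28.3%. The order rested on very small log2 gaps for C3 (0.0009 in negative cells) and C1R (0.02 in positive cells). CFB was higher in 0610 by 0.61 in negative and 0.46 in positive cells, a fold change of 0.53 ± 0.29 on the log2 scale (SE; limma adjusted p = 0.275).

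**Figure D3:**
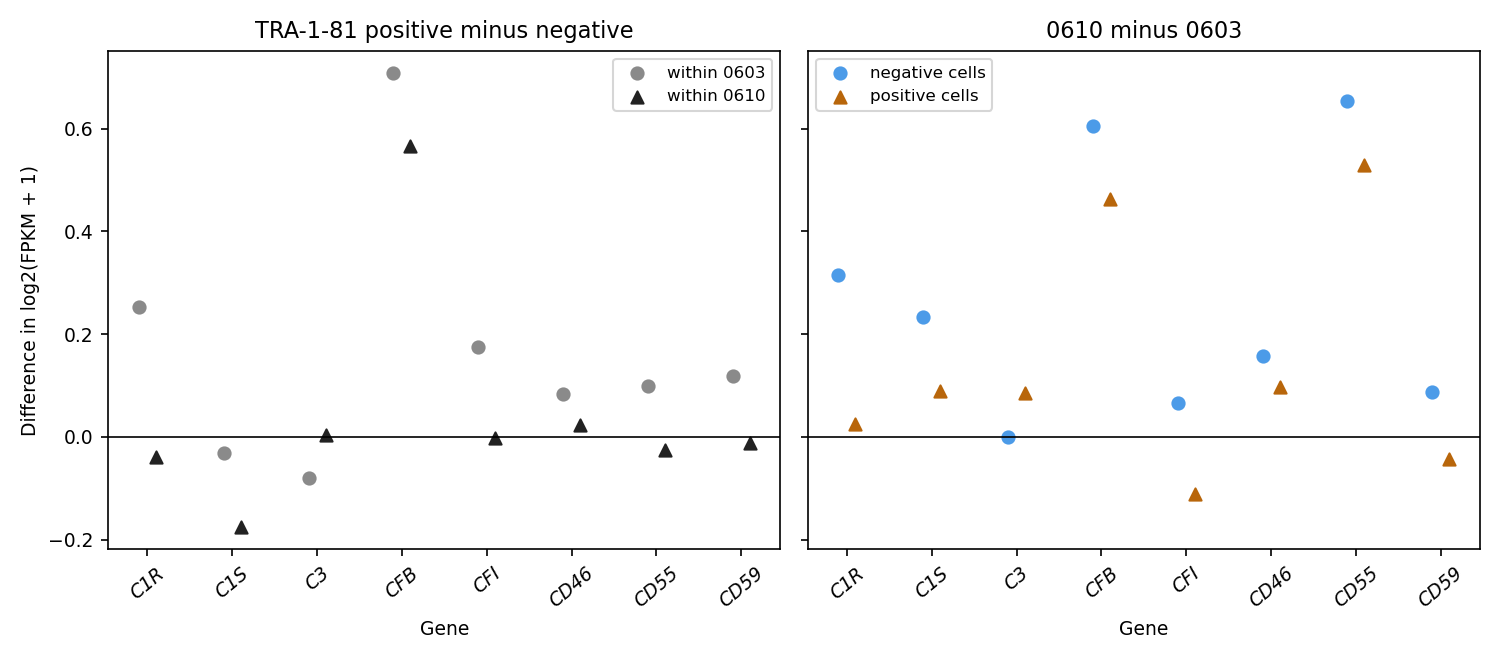
Differences in log2(FPKM + 1) among the 4 sorted libraries, positive minus negative within each title number (left) and 0610 minus 0603 within each fraction (right), 1 point per pair of libraries. CFB lies highest on the left, at 0.71 and 0.57, and CD55 highest on the right, at 0.65 and 0.53.

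Across the 6 libraries the log2 values of CFB, C1R, C1S, CFI, CD55 and CD59 correlated with one another at 0.83 to 0.996 (Pearson). These are descriptions over 6 libraries that share the wide gap between the resistant library and the rest. CD46 correlated with CFI at -0.87 and with CD59 at -0.83, while C3 correlated with CFB at -0.02. Among 2608 genes of a similar range, the gene most like C1R was SERPING1, the inhibitor of C1r and C1s, at 0.998, and TPP1 also reached 0.998. The genes most like CFB were TSKU, SEMA4A and PTAFR, at 0.998 each. C1S was most like IL33, PTGS2 and AKAP12, CFI most like NRCAM, IL36G and SERPINB13, and CD59 most like TMEM206, AMTN and RAB7L1, at 0.998 to 0.9996. Correlations above 0.99 were common, with 25 genes for CFB, 47 for C1R, 38 for C1S, 62 for CFI and 78 for CD59. A first rank therefore does not set a gene such as SERPING1 apart. For CD55 only 2 genes correlated above 0.99, FAM43A at 0.998 and PHLDB2 at 0.995, with IL1RL1 next at 0.984. FAM43A stood at 2.62 and 2.68 in the 0603 libraries and 4.98 and 5.04 in the 0610 libraries, so it shared the difference by number.

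Most of the rest of the pathway was low or listed at 0. Of 50 other listed genes, 49 were in the table. Of these, 13 had an FPKM of at least 1 in any library, against 12251 of all 19077 genes. The other 36 did not exceed 0.502, and 13 of them, among them the C1q genes C1QA, C1QB and C1QC and the lectin gene MBL2, were listed at 0 in all 6 libraries. None of the 9 lectin pathway genes reached 1, and of the 9 terminal pathway genes only CLU did. C2 stood at 1.37 to 2.103 over the 6 libraries, and C4A at no more than 0.0884; C4A is uncertain because it is nearly identical to C4B, which was not analysed here. Of the 13, resistant cells held 5 at least 2-fold above the parental level and 3 below it (median 0.14), against 13.5% and 6.9% of all genes. Of those 5, 4 (all but CLU) had an FPKM under 1 in the parental library and could not have been called lower. Against the sorted mean 4 were higher and 3 lower (median 0.31), against 8.17% and 4.89% of all genes. Of those 4, CFHR3 and SUSD4 had an FPKM under 1 in every sorted library and could not have been called lower.

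The 5 higher in resistant cells were CLU, SERPING1, SUSD4, CFHR3 and CFD. CLU, clusterin, which binds terminal complexes, had an FPKM of 2.18 in the parental, 7.52 to 8.55 in the sorted and 81.4 in the resistant library. SERPING1 stood at 0.423, 1.18 to 1.78 and 11.95 in the same order. SUSD4 had 0.206 in parental and 3.08 in resistant cells, and CFHR3 had 0.741 and 2.52, though CFHR3 belongs to a family of near-identical copies and its value is uncertain, since reads may be shared. CFD, factor D, which cleaves factor B, stood at 0.0498 in the parental, 0.407 to 0.753 in the sorted and 1.59 in the resistant library. It was the 1 of these 5 not called against the sorted mean (log2 ratio of FPKM + 1 of 0.72). Adding 1 shrinks ratios at such low values, and the resistant FPKM of CFD lay well above the sorted range.

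The 3 lower genes were CFP, THBD and ITGB2. CFP, properdin, which stabilises the alternative convertase, stood at 2.45 in the parental, 1.01 to 1.83 in the sorted and 0.144 in the resistant library. THBD, thrombomodulin, stood at 52.6, 49.2 to 83.1 and 21.1, and ITGB2, the shared chain of the iC3b receptors, at 6.37, 9.47 to 10.3 and 2.01. Of the 9 tested between the fractions, 0 passed by limma and 0 had an unadjusted p under 0.05. Between the numbers THBD was higher in 0610, at 83.1 and 82.4 against 49.2 and 49.2 (log2 fold change 0.74 ± 0.04, SE; limma adjusted p = 0.00335). C1QBP, a mitochondrial protein that can bind C1q, was lower in 0610 (-0.27 ± 0.05, SE; limma adjusted p = 0.0394).

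**Figure D4:**
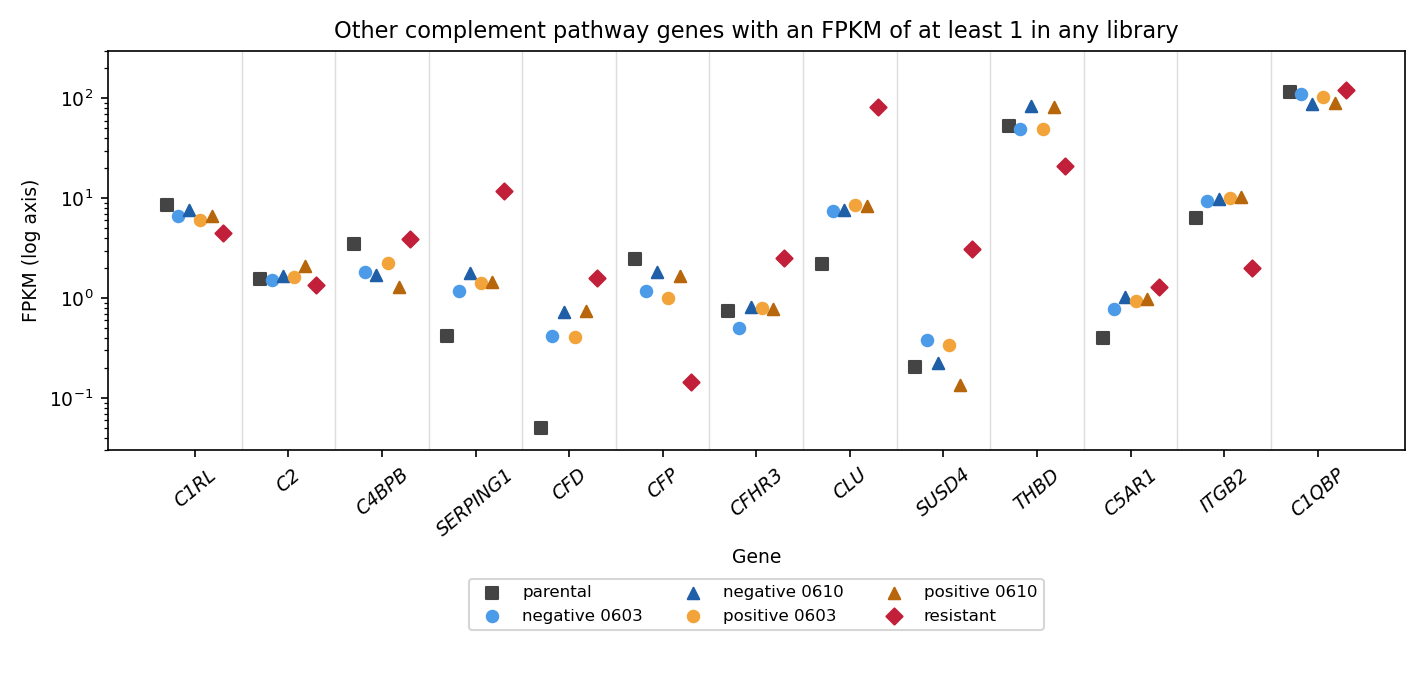
FPKM (log axis) of the 13 other listed pathway genes that reached 1 in any library, 1 point per library. CLU, SERPING1 and SUSD4 stand highest in the resistant library and CFP, THBD and ITGB2 lowest.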

How the data were processed

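Reads were processed by the authors, who deposited 1 table of gene values for 6 libraries. Its header gives no unit. The deposited values are read as FPKM, since Cufflinks 2.1.1 is named in the submitters' processing notes, together with TopHat2 2.0.11, CASAVA 1.8.2 and hg19. Which step each tool did, and its settings, is not given in the sources used here. Of 19312 rows, the row of highest mean was kept for the 191 symbols on several rows, which left out 235 rows. Starts are printed with 1 added to the table's value. No read counts were available, and the approximate depth was read off near-silent short olfactory receptor genes.

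Fractions and title numbers were compared on log2(FPKM + 1) by limma 3.58.1 in R 4.3.3 (two-sided, with a mean trend and no covariate; p adjusted by Benjamini-Hochberg over all 11533 genes, threshold 0.05), checked on simulated data. The simulated noise was independent between libraries, so that check does not cover deviations shared by libraries of the same title number. Pairs with 1 library a side were compared by a 2-fold rule, with no test. Members and lists were chosen with earlier results of these data known. Named pathway genes are those with an FPKM of at least 1 in any library. Some genes that met the naming rules are not reported here, and the pathway counts leave them out. Alternatives were other pseudocounts, filters, scaling, row handling, blocks and left-out libraries. Fragments behind C1R were not estimated, since no transcript length was matched.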

Additional observations from a re-analysis of the deposited data

Results flagged for a closer look

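For several members the difference had opposite signs in the 2 pairs of sorted libraries, mostly with a very small value in one pair. These differences were not tested, and each rests on 1 library a side. Positive minus negative, C3 stood at -0.080 within 0603 and 0.0041 within 0610 on the log2 scale, C1R at 0.25 and -0.039, CFI at 0.18 and -0.0017, CD55 at 0.10 and -0.026, and CD59 at 0.12 and -0.012. Taking 0610 minus 0603, CFI stood at 0.067 in negative and -0.11 in positive cells, and CD59 at 0.088 and -0.042.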

How the results depend on the processing

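The count of members at least 2-fold higher in resistant cells was 5 to 6 against either reference in every setting tried; with a pseudocount of 5 the gene lost was C1S (log2 ratio 0.88 against parental). With a pseudocount of 0.1, 2 members in place of 1 were at least 2-fold higher in sorted than in parental cells, the second being C1R at 1.46. Same-numbered libraries deviated together (correlation 0.654 across 11533 genes), but with 2 pairs this does not show that the numbers pair them. With the number as a replicate block, 1 member passed between the fractions, CFB (log2 fold change 0.64, limma adjusted p = 2.76e-05, and 0.418 to 1 without a block), among 1484 genes in place of 1. With the fraction as a replicate block, 3 members passed between the numbers, CD55 (3.43e-06), CFB (2.10e-05, and 0.158 to 0.711 without a block) and CD46 (0.0106, and 0.129 to 0.412), among 4753 genes in place of 1047. With no filter 111 genes passed between the numbers and 0 between the fractions, where an FPKM of at least 5 also gave 0. Leaving out 1 library gave 0 to 1 members between the numbers and 0 between the fractions, and 18 to 124 and 1 to 3 genes in all. It turned the sign of small differences: between the fractions C3 ranged from -0.081 to 0.0045, C1R from -0.051 to 0.26, CD46 from -0.026 to 0.13 and CD55 from -0.29 to 0.36, and between the numbers CD59 ranged from -0.036 to 0.082. The cause was not tested. Depth limits C1S and CFI in the unsorted parental library.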

Other observations

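Several complement genes under an FPKM of 1, chosen after their values were seen, had their highest value in the resistant library. Among the 12251 genes that reached 1 in any library, 38.5% did so. Other pathway genes under 1 had their lowest value there, such as C7 (0.026), COLEC11 (0.043) and MASP2 (0.341), so these genes show no common direction. C9, a pore-forming terminal component, stood at 0.497 there and at 0 to 0.020 in the other 5, and C8B stood at 0.328 against 0 to 0.023. C3AR1, the C3a receptor, stood at 0.167 against 0 to 0.044, and ITGAM, a chain of an iC3b receptor, at 0.103 against 0 to 0.019. These values were not tested.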
